A study of Mus musculus with 15 samples.

Results

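The region described here is the 3.5 Mb of mouse chromosome 17 beginning at 34000001 bp (mm9), which holds the major histocompatibility complex (MHC). Its members are the 845 HindIII sites in that stretch, out of 823355 sites listed in each library, chosen by position alone. The stretches of the same length on either side, beginning at 30500001 bp (the low-side flank, 997 sites) and at 37500001 bp (the high-side flank, 1070 sites), served for comparison, as did the 740646 sites of the autosomes other than chromosome 17, less those of the bait's own chromosome. No mm9 gene annotation was used here, so the label of the region could not be checked against genes placed in these coordinates.

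The assay was 4C-seq, a form of chromosome conformation capture in which DNA ligated to a chosen bait site is amplified and read. A HindIII site with reads is taken as ligated to the bait in at least 1 cell, though single reads were not checked for other origins. The share of sites captured in a region is read as how often it lay near the bait. How uniquely reads map among the closely similar H2 genes, and which H2 haplotype the B cell line carries, were not tested, and a site that reads cannot be placed on also appears as never captured. The bait sites lay at Ifng on chromosome 10 (interferon gamma, a lymphocyte cytokine), at Pparg on chromosome 6 (a nuclear receptor needed to make adipocytes) and at Lpin1 on chromosome 12 (a phosphatidate phosphatase of lipid synthesis). Each bait was read in an unnamed B lymphocyte line, in 1 library, and in 3T3-L1 cells, with 2 libraries for each of days 0, 1, 2 and 6 after differentiation began. 3T3-L1 is a mouse fibroblast line that turns into adipocytes. At day 0 the confluent cells received 1 μM dexamethasone, 0.5 mM 3-isobutyl-1-methylxanthine and 1 μg/ml insulin in medium with 10% fetal serum, and from day 2 insulin and serum. Day 0 cells are labelled preadipocytes and day 6 cells mature adipocytes. Both lines carry no stated genetic change, and the growth conditions of the B cells are not given apart from those of 3T3-L1. All cells were fixed in 2% formaldehyde for 10 min. The 27 libraries held 116031 to 3002206 reads, of which 3.07% to 93.2% lay on the site with the most reads, the bait site. They captured 3197 to 56201 sites on autosomes other than 17 and the bait's, and 14.2% to 74.1% of those sites had 1 read. No 2 libraries held identical counts. The labels do not say whether the replicates came from separate cultures, or whether the 3 baits were read from the same chromatin, so every p measures the spread between these libraries.

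The MHC is the gene-dense region that encodes the proteins with which cells show peptides to T cells. Class I molecules carry peptides made inside the cell and class II molecules carry peptides taken up by antigen-presenting cells such as B cells. Interferon gamma is known to raise the expression of both. In the RefSeq gene table of GRCm38.p6, used here for gene order alone, 169 protein-coding genes run from H2-K1 to H2-M2, 35 of them named H2 and 16 olfactory receptors. H2-K1, which encodes a classical class I heavy chain, comes first, and Tapbp, which encodes the chaperone tapasin, lies a few genes before it. Then come the class II genes (H2-Oa, H2-DMa, H2-DMb2, H2-DMb1, H2-Ob, H2-Ab1, H2-Aa, H2-Eb1 and H2-Eb2) with the immunoproteasome subunits Psmb9 and Psmb8 and the peptide transporter subunits Tap1 and Tap2 among them. The class III genes follow, with Notch4, the complement genes C4b, Cfb and C2, the heat shock genes Hspa1b and Hspa1a, and the cytokine genes Ltb, Tnf and Lta. H2-D1, the other classical class I gene of the list, has 82 of the 169 before it. Beyond it lie the nonclassical class I genes of the Q, T and M groups, interrupted by Pou5f1, Ddr1, Trim26, Trim10, Mog and Gabbr1. The olfactory receptors stand around H2-M3 and H2-M2, and 30 of the next 50 protein-coding genes are olfactory receptors too. All 51 genes listed by class were found on chromosome 17 in the table, C4a as a transcribed pseudogene.

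The feature that 4C-seq reads is the HindIII site, AAGCTT, which is the same on both strands. In RefSeq's promoter windows of GRCm38.p6, from 250 bases before to 50 after each gene's start, 6 of 49 windows of the listed genes held it (12.2%), against 7.45% of all 32851 windows. The sites before the gene starts are printed 5′ to 3′ on the gene's strand, with the HindIII site in capitals and up to 15 bases on each side, because they show the kind of site that the assay cuts near genes of the region. Which mm9 site each corresponds to was not determined, so none is tied to a captured count.
H2-DMa, which encodes a class II peptide exchange subunit (114 bases before the start, plus strand): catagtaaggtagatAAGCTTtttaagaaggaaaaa
H2-Eb2, a class II beta chain gene (216 bases before the start, plus strand): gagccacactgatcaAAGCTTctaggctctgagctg
Ddx39b, which encodes an RNA helicase (80 bases before the start, plus strand): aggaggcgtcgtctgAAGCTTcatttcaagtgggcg
H2-T23, which encodes the nonclassical class I chain Qa-1 (231 bases before the start, minus strand): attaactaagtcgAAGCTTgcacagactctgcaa
Ddr1, which encodes a collagen receptor kinase (3 bases before the start, minus strand): gtcaacgtcctttgaAAGCTTtgg

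HindIII sites were sparse in the MHC. Its 7 windows of 500 kb held 107 to 128 sites each, while 4809 windows of the genome had a median of 162 sites (quartiles 148 and 174). Between 1.29% and 7.24% of those windows held fewer sites than an MHC window did. Of the 845 MHC sites, 357 were captured in at least 1 of the 27 libraries and 488 (57.8%) in none. The sites never captured made up 45.8% in the low-side flank, 77.0% in the high-side flank and 56.4% on the autosomes other than 17. Within the MHC this share ran from 41.8% in the window from 35.0 Mb to 71.7% in the window from 36.0 Mb, and the median over all windows was 58.5%. The 3 windows from 36.0 Mb on were thus captured at fewer of their sites than the 4 below them, of which the highest share never captured was 58.6%.

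In 3T3-L1 cells the Pparg and Lpin1 baits captured the MHC more often than other autosomes and the Ifng bait captured it less often. Capture is given as a multiple, the captured share of the region's sites over the captured share of other autosomes in the same library, so that 1 is the autosomal mean. For Pparg the MHC multiple averaged 1.73 ± 0.235 (SD, n = 8 libraries), with a lowest value of 1.31, a median of 1.77 and a highest value of 2.00. All 8 libraries lay above 1, and the mean log2 multiple was 0.78 (two-sided exact sign-flip permutation test, p = 0.00781, the smallest p that 8 libraries allow, and 0.0156 adjusted over the 6 such tests). For Lpin1 the multiple averaged 1.44 ± 0.427 (SD, n = 8), between 1.06 and 2.33 with a median of 1.30. Again all 8 libraries lay above 1, with a mean log2 multiple of 0.48 (exact sign-flip permutation test, p = 0.00781, adjusted 0.0156). For Ifng the multiple averaged 0.687 ± 0.152 (SD, n = 8), between 0.479 and 0.941 with a median of 0.685. All 8 Ifng libraries lay below 1, with a mean log2 multiple of -0.57 (exact sign-flip permutation test, p = 0.00781, adjusted 0.0156). Among autosomal tiles of 3.5 Mb the Ifng median was also below 1, at 0.844 (quartiles 0.642 and 1.13), and the MHC lay between the quartiles. How many other tiles would pass the sign-flip test was not examined for any bait. With reads per site in place of captured sites, the Pparg and Lpin1 means were 0.63 (p = 0.0938) and 0.35 (p = 0.156) by the same exact permutation test and no longer passed. By captured sites, chromosome 17 as a whole had Lpin1 multiples of 1.15 to 1.27 in 3T3-L1 cells, so it shared in the excess. The MHC lay below the chromosome in day 1 replicate 1 (1.15 against 1.20) and on day 2 (1.08 against 1.16, 1.06 against 1.15). It was higher in the other Lpin1 libraries. The Pparg libraries put the chromosome at 0.929 to 1.31, with the MHC higher in each. Those of Ifng put the chromosome at 0.933 to 1.03, with the MHC lower in each. These gaps were not tested.

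**Figure D1:**
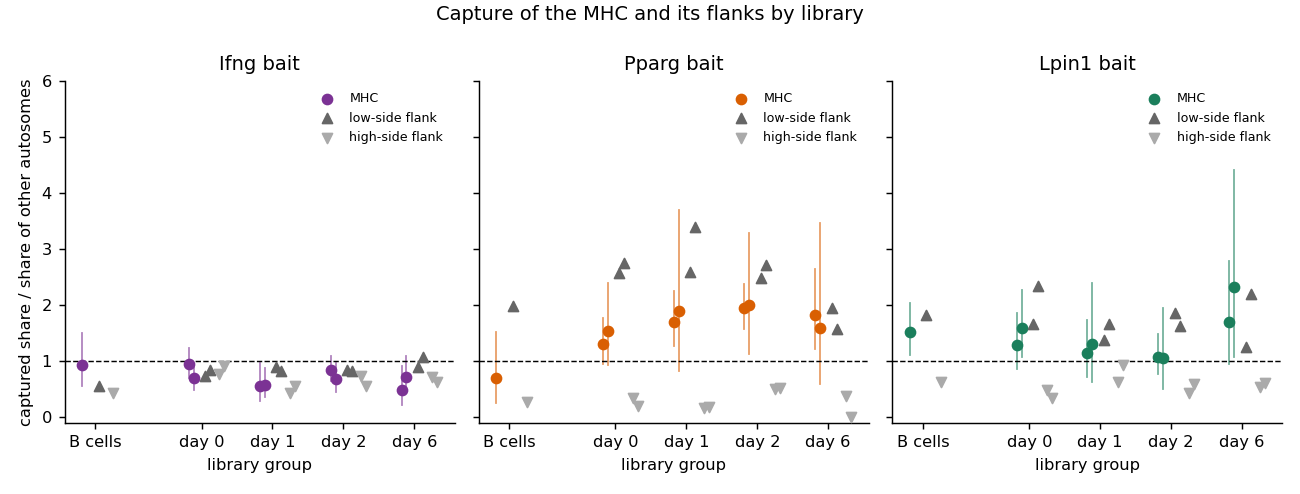
Captured share of the MHC (circles) and of its low-side and high-side flanks (triangles) relative to other autosomes, 1 point a library, for the Ifng, Pparg and Lpin1 baits in B cells and at days 0, 1, 2 and 6 of 3T3-L1 differentiation. Bars on the MHC points are exact 95% binomial intervals for counting error only, and the dashed line marks the autosomal mean of 1. All 8 Pparg and all 8 Lpin1 libraries of 3T3-L1 lie above the line and all 8 Ifng libraries lie below it.

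The counts behind these multiples were small. Of the 845 sites, a 3T3-L1 library captured 6 to 85 with the Pparg bait (0.710% to 10.1%). With Lpin1 it captured 9 to 36 (1.07% to 4.26%) and with Ifng 9 to 55 (1.07% to 6.51%). The Pparg files numbered 1 held 40, 47, 85 and 27 captured MHC sites at days 0, 1, 2 and 6, and those numbered 2 held 19, 8, 15 and 6. Reads lay unevenly on these sites: the most-read site of a Pparg library held 13.5% to 65.2% of its MHC reads. In Lpin1 libraries it held 8.84% to 91.6% and in Ifng libraries 7.86% to 38.5%. PCR copies of 1 ligation may be counted as separate reads, since whether duplicates were removed is not given. The intervals in the plot of capture by library cover counting error only and treat sites as independent draws.

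The multiple placed the MHC above or below most of the genome but not at an extreme. Among all autosomal tiles of 3.5 Mb, the size of the MHC, outside the bait chromosome, the median tile had a mean multiple of 0.827 for Pparg, 0.926 for Lpin1 and 0.844 for Ifng in 3T3-L1 cells. The MHC ranked 100 of 657 tiles for Pparg, with 84.8% of tiles lower, and 123 of 665 for Lpin1, with 81.5% lower. It ranked 461 of 662 for Ifng, with 30.4% lower. These ranks are a description and carry no test.

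**Figure D2:**
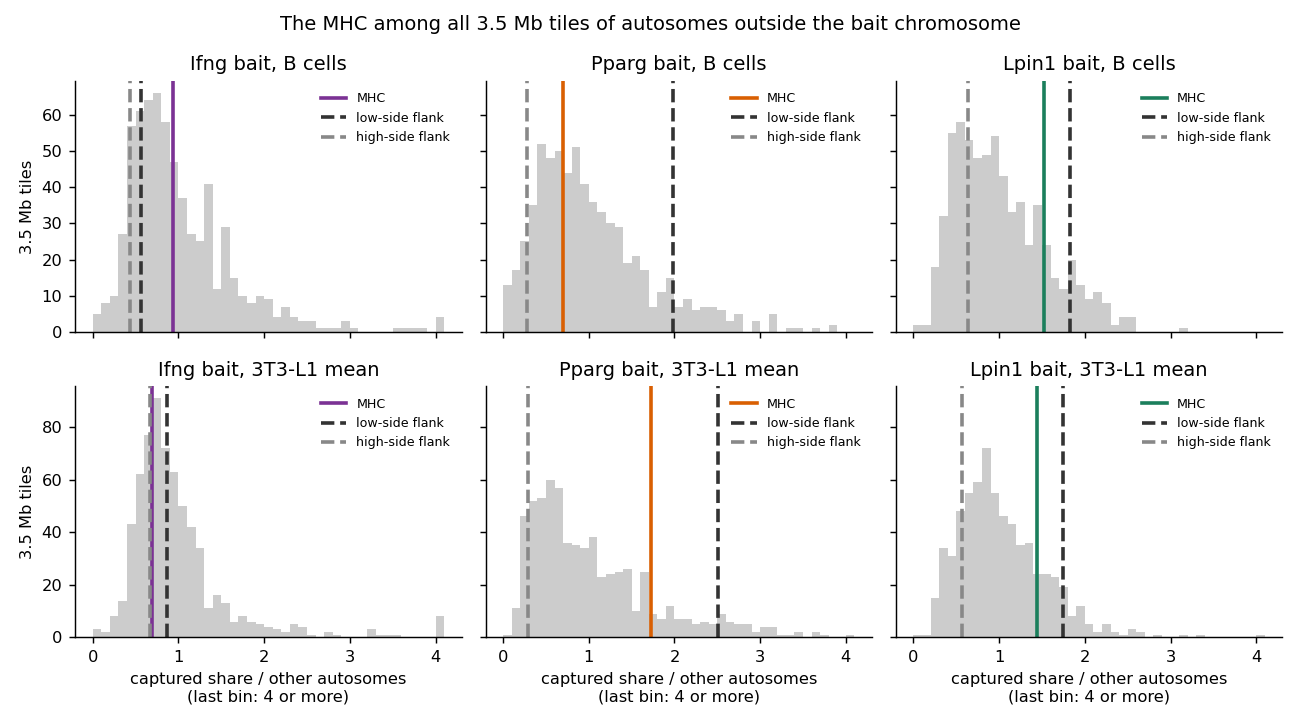
Histograms of the captured share relative to other autosomes for all 3.5 Mb tiles outside the bait chromosome (x axis, with 4 or more in the last bin; y axis, number of tiles), for B cells (top) and for the mean of the 8 3T3-L1 libraries (bottom). Coloured lines mark the MHC and dashed lines its flanks. The MHC stands at 1.73 for Pparg, 1.44 for Lpin1 and 0.687 for Ifng in 3T3-L1 cells, and at 0.701, 1.53 and 0.940 in B cells.

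The flanks differed from each other more than the MHC differed from both together. In 3T3-L1 cells the Pparg multiple was 1.73 in the MHC, 2.51 ± 0.545 in the low-side flank and 0.287 ± 0.182 in the high-side flank (SD, n = 8). The Lpin1 multiple was 1.44 in the MHC, 1.75 ± 0.374 in the low-side flank and 0.569 ± 0.173 in the high-side flank. The Ifng multiple was 0.687 in the MHC, 0.869 ± 0.102 in the low-side flank and 0.666 ± 0.152 in the high-side flank. Against both flanks pooled, the MHC was higher for Pparg by a mean log2 ratio of 0.37 in 7 of 8 libraries (exact sign-flip permutation test, p = 0.0234, adjusted 0.0352). It no longer passed with reads per site (0.42), with at least 2 reads (0.49), with ever-captured sites alone (0.22) or after thinning (0.16), with p = 0.422, 0.0625, 0.156 and 0.453 by the same exact permutation test. The ratio was 0.31 for Lpin1 in 6 of 8 libraries (p = 0.0547, adjusted 0.0656) and -0.18 for Ifng, below 0 in 6 of 8 (p = 0.164, adjusted 0.164), by the same exact permutation test. With reads per site the Lpin1 ratio was -0.61, and under the 4 settings named for Pparg the Ifng ratio passed, at -0.33 to -0.22. These tests pool the days, and the ratio varied by day. Without the log2, it was 0.923 and 1.08 on day 0 and 1.61 and 2.10 on day 6 for Pparg. For Lpin1 it was 1.22 in both day 0 libraries and 1.93 and 1.69 on day 6, and for Ifng 1.25 and 0.787, then 0.595 and 0.856. Whether this ratio changed with the day was not tested. The pooled ratio turns with the flank: against the low-side flank alone the Pparg ratio was -0.52 (p = 0.0156) and the Lpin1 ratio -0.30 (p = 0.0781), while against the high-side flank alone they were 2.54 (n = 7, since 1 library captured no site there) and 1.35, by the same exact permutation test. By the mean captured share over all days, the MHC thus lay between a more captured low side and a less captured high side for Pparg and Lpin1. This did not hold throughout. On day 6 the MHC over the low-side flank was 0.937 and 1.01 for Pparg and 1.36 and 1.06 for Lpin1. By reads per site, the Lpin1 high-side flank had multiples of 1.04 to 4.82 on days 0 to 2, against 0.822 to 1.93 in the MHC. On day 6 it had 0.350 and 0.464, against 1.77 and 2.29 in the MHC.

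Inside the MHC the fall from the low to the high side was not even. For Pparg the mean multiple in 3T3-L1 cells was 2.55 in the window from 34 Mb, 2.41 from 34.5 Mb, 2.34 from 35.0 Mb, 1.71 from 35.5 Mb, 1.52 from 36.0 Mb, 0.164 from 36.5 Mb and 1.63 from 37 Mb. The window from 36.5 Mb was low for Pparg in each of the 8 libraries (0 to 0.487), with 5 captured sites in all. Its neighbours averaged above 1, with 5 of 8 libraries above 1 in each. The mean from 36.0 Mb includes 5.32 in day 6 replicate 2, where the other libraries had 0 to 1.78. For Lpin1 the means were 2.62, 1.31, 1.79, 1.89, 0.929, 0.561 and 1.11 in the same order, and the window from 34 Mb was above 1 in 7 of 8 libraries. For Ifng the means were 0.368, 0.529, 0.616, 0.687, 0.283, 1.32 and 0.948. Here the window from 36.5 Mb was the one above 1 on average and was above 1 in 8 of 8 libraries (1.06 to 1.74), and the windows from 34, 35.0 and 36.0 Mb were above 1 in none. Single windows rest on few captures: a window held 5 to 62 over the 8 Pparg libraries, 10 to 31 over those of Lpin1 and 13 to 63 over those of Ifng.

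**Figure D3:**
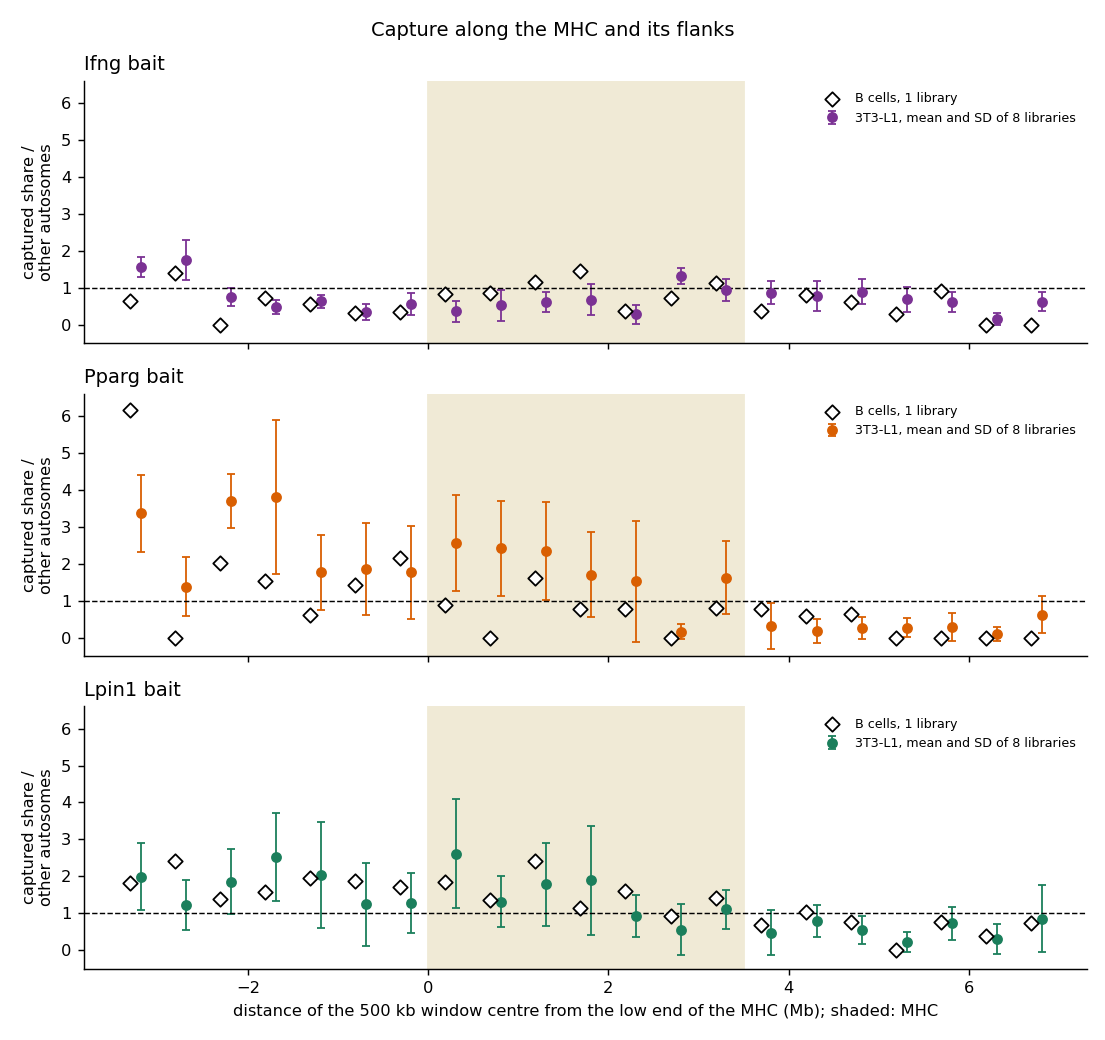
Captured share relative to other autosomes (y axis) per 500 kb window, by distance of the window's centre from the low end of the MHC (x axis, Mb), for the Ifng, Pparg and Lpin1 baits. Diamonds are the single B cell libraries, filled circles with bars the mean and SD of the 8 3T3-L1 libraries, and the shaded band is the MHC. In 3T3-L1 cells the window from 36.5 Mb has 1.32 for Ifng, 0.164 for Pparg and 0.561 for Lpin1.

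The difference between baits was tested in 1 edgeR quasi-likelihood fit on captured sites per 3.5 Mb tile over all 27 libraries, in which the MHC and each flank are 1 tile. The MHC was captured less from Ifng than from the mean of Pparg and Lpin1 in the 3T3-L1 libraries. The log2 difference was -1.03 ± 0.13 (SE; edgeR, Benjamini-Hochberg adjusted p = 8.48e-15), a ratio of 0.489 (95% interval 0.409 to 0.583). Such a difference is common: 79.7% of the 629 tiles tested passed in either direction, 43.7% as higher and 35.9% as lower, and 18.3% of tiles had a lower log2 difference than the MHC. The low-side flank had -1.11 ± 0.12 (SE) and the high-side flank 0.84 ± 0.18 (SE). Between Pparg and Lpin1 the MHC did not pass, at 0.34 ± 0.16 (SE; 95% interval 0.03 to 0.65, edgeR adjusted p = 0.0788), where 34% of tiles passed. It passed there without a filter on tiles with few captures (edgeR adjusted p = 0.0424) and without the day 6 replicate 2 library of Lpin1 (edgeR adjusted p = 0.0227).

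A fit at the scale of 500 kb windows was added after the values were seen. The windows from 34.5, 35.0 and 35.5 Mb passed between Ifng and the other baits, as did 69.8% of 3286 windows in the genome. They were lower from Ifng, with log2 differences of -1.56 ± 0.43, -1.45 ± 0.35 and -0.85 ± 0.34 (SE; edgeR adjusted p = 0.00054, 9.82e-05 and 0.0179). The window from 34 Mb had 19 captures over the 8 Ifng libraries, 45 over the Pparg libraries and 31 over the Lpin1 libraries of 3T3-L1. It had enough captures to be tested only through Pparg and Lpin1, so its log2 difference of -2.03 is given as a description, without a test. The window from 36.5 Mb had 63 captures over the 8 Ifng libraries, 5 over the Pparg libraries and 10 over the Lpin1 libraries of 3T3-L1. It had enough captures to be tested only through Ifng, so its log2 difference of 2.13 is given as a description, without a test. The window from 37 Mb did not pass, at 0.23 ± 0.36 (SE; adjusted p = 0.579), and the window from 36.0 Mb was too rarely captured to be tested. Across the genome 39.8% of windows passed as higher from Ifng and 29.9% as lower. With at least 2 reads required per captured site only 1 MHC window could be tested, and it did not pass, and after thinning 0 could be tested. Between Pparg and Lpin1 none of the 6 windows passed (1 at an unadjusted p under 0.05 with edgeR, and 0 with DESeq2), where 5.3% of all windows did.

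During 3T3-L1 differentiation no change in MHC capture passed the test for any bait. From Pparg the multiples were 1.31 and 1.54 on day 0, 1.71 and 1.89 on day 1, 1.95 and 2.00 on day 2, and 1.83 and 1.60 on day 6. Both day 0 libraries lay below all 6 later ones. In the edgeR fit of the bait the log2 differences from day 0 were 0.39 ± 0.29 on day 1, 0.46 ± 0.26 on day 2 and 0.31 ± 0.33 on day 6 (SE; adjusted p = 0.872, 0.620 and 0.741), and 0, 0.144% and 3.74% of the 696 tiles passed on those days. On day 1, 5.32% of tiles had an unadjusted p under 0.05 with edgeR, and DESeq2 called 0. With reads in place of captured sites these differences were -0.08, -0.98 and -0.41, so the direction for Pparg depends on the measure.

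From Lpin1 the multiples were 1.29 and 1.60 on day 0, 1.15 and 1.31 on day 1, 1.08 and 1.06 on day 2, and 1.70 and 2.33 on day 6. The day 6 libraries were the highest and the day 2 libraries the lowest. The log2 differences from day 0 were -0.26 ± 0.32, -0.42 ± 0.29 and 0.42 ± 0.36 on days 1, 2 and 6 (SE; edgeR adjusted p = 0.940, 0.756 and 0.830), where 0, 0.283% and 0.142% of 706 tiles passed. On day 1, 5.52% of tiles had an unadjusted p under 0.05 with edgeR, and DESeq2 called 0. The day 6 values rest on 15 and 9 captured sites. Without 1 library the day 6 difference ran between 0.25 and 0.70.

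From Ifng the multiples were 0.941 and 0.696 on day 0, 0.554 and 0.582 on day 1, 0.844 and 0.675 on day 2, and 0.479 and 0.724 on day 6. The highest value was a day 0 library, and the days overlapped except that both day 1 libraries lay below both libraries of days 0 and 2. The log2 differences from day 0 were -0.51 ± 0.29, -0.08 ± 0.23 and -0.38 ± 0.30 on days 1, 2 and 6 (SE; edgeR adjusted p = 0.979, 0.997 and 0.909), where 0, 0 and 0.426% of 705 tiles passed. At an unadjusted p under 0.05, 3.69% and 5.11% of tiles passed on days 1 and 2, and DESeq2 called 0 on both. Over the 3 baits together the differences were -0.12 ± 0.17, -0.02 ± 0.15 and 0.15 ± 0.19 (SE; edgeR adjusted p = 0.966, 0.995 and 0.921), where 0, 0 and 0.159% of 629 tiles passed. On days 1 and 2, 6.84% and 5.72% of tiles had an unadjusted p under 0.05 with edgeR, and DESeq2 called 0. The 95% intervals of these differences ran from -0.46 to 0.22, from -0.30 to 0.27 and from -0.23 to 0.53.

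In B cells the multiple of the MHC from Pparg was below that of every 3T3-L1 library, which was not so for the other baits, nor for Pparg by reads or after thinning. From Pparg 6 of 845 sites were captured in B cells, a share of 0.710% (exact 95% binomial interval 0.261 to 1.54) and a multiple of 0.701 (0.258 to 1.52), below all 8 multiples in 3T3-L1 cells. Day 6 replicate 2 of 3T3-L1 also captured 6 sites, and by reads per site the B cell multiple of 0.719 lay above 1 of the 8. The low-side flank had a multiple of 1.98 in B cells and 2.51 in 3T3-L1 cells, and the high-side flank 0.277 and 0.287. The B cell MHC multiple ranked 416 of 657 tiles. In the edgeR fit the log2 difference of B cells from 3T3-L1 cells was -1.30 ± 0.53 (SE; unadjusted p = 0.0134, adjusted p = 0.163), so it did not pass where 2.44% of 696 tiles did, and 7.61% of tiles were lower. At the depth of the shallowest Pparg library it was -0.77, and the thinned B cell multiple of 0.887 lay above 1 of the 8 3T3-L1 values.

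From Lpin1, 44 sites (5.21%, interval 3.81 to 6.93) were captured in B cells, a multiple of 1.53 (1.12 to 2.03), below 3 and above 5 of the 3T3-L1 libraries. The log2 difference was 0.18 ± 0.26 (SE; 95% interval -0.32 to 0.68, edgeR adjusted p = 0.701), where 10.2% of 706 tiles passed. From Ifng, 17 sites (2.01%, interval 1.18 to 3.20) were captured in B cells, a multiple of 0.940 (0.549 to 1.5), above 7 of the 8 3T3-L1 libraries. The log2 difference was 0.47 ± 0.38 (SE; 95% interval -0.28 to 1.21, edgeR adjusted p = 0.493), where 7.94% of 705 tiles passed. The Ifng multiples of the flanks went the other way. They were 0.562 in B cells and 0.869 in 3T3-L1 cells for the low side and 0.437 and 0.666 for the high side. Each B cell value lay below all 8 libraries, but for the high side day 1 replicate 1 was nearly tied, at 0.438. The B cell values rest on 12 captured sites in the low-side flank and 10 in the high-side flank. The MHC over its flanks was accordingly 1.89 from Ifng in B cells, above the 0.595 to 1.25 of the 3T3-L1 libraries.

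Whether the B cell difference itself differed between baits was tested in the fit of all libraries. The Ifng difference exceeded the mean of the Pparg and Lpin1 differences by 0.95 ± 0.50 on the log2 scale (SE; 95% interval -0.02 to 1.92, edgeR adjusted p = 0.218) and did not pass, where 12.9% of tiles did. For the 3 baits together the MHC difference was -0.27 ± 0.24 (SE; 95% interval -0.74 to 0.20, edgeR adjusted p = 0.586), where 2.38% of tiles passed. The B cell library of each bait has no replicate and was assumed to vary like the 3T3-L1 libraries.

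**Figure D4:**
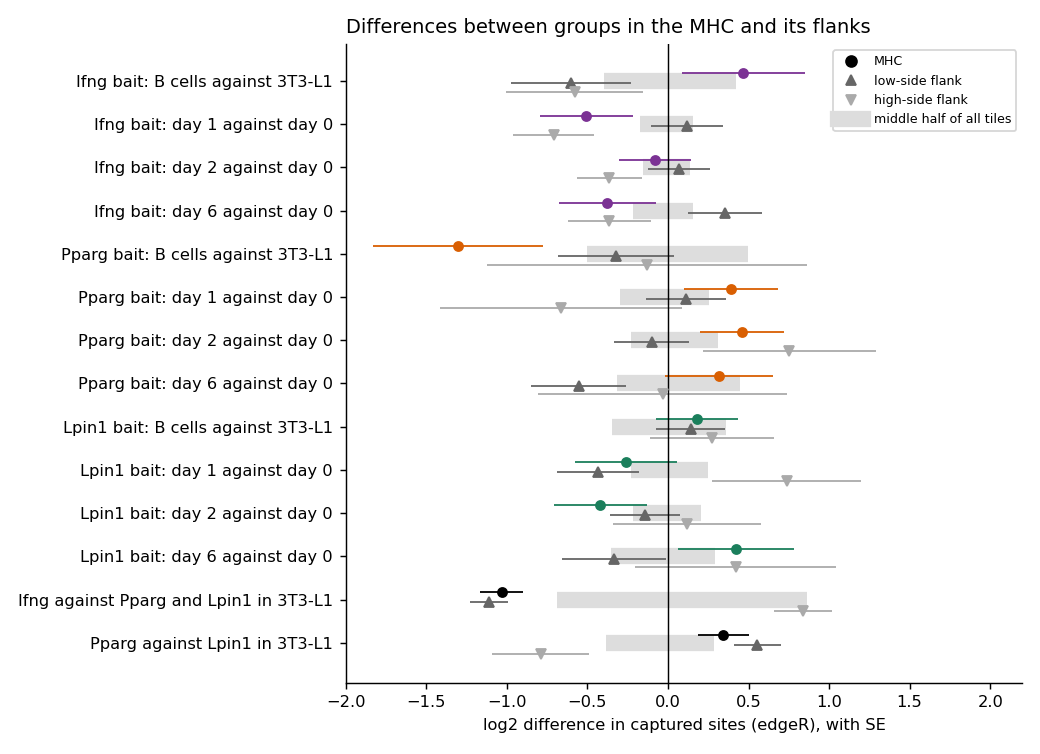
Log2 differences in captured sites from edgeR (x axis, bars 1 SE) for the MHC (circles) and its flanks (triangles): B cells against 3T3-L1 and days 1, 2 and 6 against day 0 for each bait, and the differences between baits in 3T3-L1. Grey bars run from the lower to the upper quartile of all tiles tested. The MHC lies outside the grey bar at -1.30 for Pparg in B cells and at -1.03 for Ifng against the other baits, of which the second passed.

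Within the MHC, no 500 kb window passed in any of the 4 contrasts of a bait. For Pparg and Lpin1 4 of the 7 windows had enough captures to be tested, and for Ifng 5. At an unadjusted p under 0.05 with edgeR, the count over the 4 contrasts was 1 for Pparg, 0 for Lpin1 and 1 for Ifng, and DESeq2 called 0. In the B cell contrast 0, 0.222% and 0.435% of all windows passed for Pparg, Lpin1 and Ifng, and in every day contrast 0 did with edgeR. At an unadjusted p under 0.05 the share of all windows was 3.91%, 4.88% and 6.6% on days 1, 2 and 6 and 6.86% in B cells for Pparg. On the same days it was 5.02%, 5.16% and 7.02% for Lpin1 and 3.14%, 3.29% and 3.99% for Ifng. From Pparg the 6 B cell captures lay in the windows from 34 (1 site), 35.0 (2), 35.5 (1), 36.0 (1) and 37 Mb (1). From Lpin1 the 44 B cell captures were spread over all 7 windows, with 4 to 10 each and the highest multiple, 2.40, from 35.0 Mb. From Ifng the highest B cell multiple was 1.46, from 35.5 Mb, and the window from 36.5 Mb, the highest in 3T3-L1 cells at 1.32, had 0.741 in B cells.

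Of the 357 MHC sites ever captured, 182 (51%) were captured in 2 or more of the 27 libraries, against 47.0% of captured sites on autosomes other than 6, 10, 12 and 17. Over the 8 3T3-L1 libraries Pparg captured 195 distinct sites, 45 of them in 2 or more libraries (23.1%, against 19.1% on other autosomes) and 1 in 4 or more. Lpin1 captured 118 sites, 25 in 2 or more (21.2%, against 19.2%) and 2 in 4 or more, and Ifng captured 129 sites, 60 in 2 or more (46.5%, against 48.6%) and 11 in 4 or more. The replicates of a day shared 0 to 2 sites from Pparg, 1 to 4 from Lpin1 and 3 to 11 from Ifng. From Pparg the shared sites were 0 to 13.3% of a library's captured MHC sites, where they were 0.985% to 11.1% on other autosomes. From Lpin1 they were 2.78% to 20%, against 3.84% to 13.6%, and from Ifng 14.3% to 41.7%, against 17.5% to 33.0%. Of the captures in B cells, 5 of 6 were also seen in 3T3-L1 cells from Pparg, 18 of 44 from Lpin1 and 13 of 17 from Ifng. These are 83.3%, 40.9% and 76.5% of the MHC captures, against 41.5%, 44.2% and 80.8% on other autosomes. These shares are descriptions and were not tested. Over all 27 libraries 175 sites were captured once and 24 in 5 or more, and no site was captured in more than 8. All 3 baits captured 11 sites in 3T3-L1 cells.

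The sites captured in most 3T3-L1 libraries from each bait were different sites, and none led for more than 1 bait. From Pparg the site at chr17:37109556-37109561 (mm9) was captured in 4 of 8 3T3-L1 libraries, with 4 reads or fewer in each, and those at chr17:34996819-34996824 and chr17:34972127-34972132 in 3. From Lpin1 the site at chr17:34033896-34033901 was captured in 5 libraries, with 341 reads in day 6 replicate 2 and 18 or fewer in the others. The sites at chr17:35814622-35814627 and chr17:34228459-34228464 followed with 4 and 3 libraries. From Ifng the site at chr17:36561429-36561434 was captured in 7 of 8 libraries, with 1 to 9 reads in each, and in none of the 8 Pparg and 8 Lpin1 libraries. Those at chr17:37207729-37207734 and chr17:37375582-37375587 were captured in 6. All 3 leading Ifng sites and the first Pparg site lay above 36.5 Mb, while 2 of the 3 leading Pparg sites and all 3 leading Lpin1 sites lay below 36.0 Mb. Of these 9 sites, those at chr17:35814622-35814627 and chr17:34228459-34228464 had reads in B cells, 2 and 1, from the Lpin1 bait.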

How the data were processed

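Per the submitters' processing notes, reads were aligned with Bowtie to mm9. Its version, how reads were filtered and whether duplicates were removed are not given in the sources used here. The authors deposited counts, whole numbers of reads per HindIII site, without normalisation. Here, 1 read or more made a site captured. Captured sites were summed over 3.5 Mb tiles and 500 kb windows and fitted with edgeR 4.0.16 in R 4.3.3 (robust quasi-likelihood, TMM scaling, mean of at least 3 captured sites, Benjamini-Hochberg adjustment over all tiles of a contrast, threshold 0.05). Each bait had its own fit of 9 libraries in 5 groups, outside the bait chromosome, with X. A fit of all 27 libraries in 15 groups, outside chromosomes 6, 10 and 12, compared baits. Multiples were tested over the 8 3T3-L1 libraries with two-sided exact sign-flip permutation tests in Python (SciPy 1.17.1 and NumPy 2.4.6 installed). The fits were tested on simulated data. The region, gene lists and sites shown were chosen with earlier results of these data known. Sites named are the 3 per bait captured in most 3T3-L1 libraries, ties by mean reads. Same-numbered replicates of different days deviated together weakly for Pparg, with correlations from 0.108 to 0.269. On every day the Pparg file numbered 1 also held more reads than that numbered 2, so pairing cannot be told apart from depth there. For Lpin1 the correlations ran from -0.02 to 0.32 and for Ifng from 0.016 to 0.43, near 0 for some pairs of days and higher for others. The replicate number as a block changed no call for the MHC. Other alternatives were DESeq2 1.42.0, total scaling, no filter, reads, at least 2 reads, thinning to the shallowest library of a bait and leaving out each library.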

Additional observations from a re-analysis of the deposited data

Results flagged for a closer look

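Of 36 groups of 8 3T3-L1 libraries examined for a single library far from the rest, 3 had one, and chance gives about 1 in 20. For Pparg the multiple of the window from 36.0 Mb was 5.32 in day 6 replicate 2, where the other 7 libraries had 0 to 1.78. That library captured 6 MHC sites in all, 3 of them in this window. For Lpin1 the window from 35.5 Mb had 5.13 in day 6 replicate 2, against 0.703 to 2.55 in the others, also from 3 captured sites. For Lpin1 the high-side flank had 0.928 in day 1 replicate 2, against 0.348 to 0.621 in the others, from 9 captured sites.

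The difference between baits in 3T3-L1 cells was also flagged, because it passed in the edgeR fits over all libraries. So did 79.7% of all tiles and 69.8% of all 500 kb windows, so it is common in the genome. Ifng against Pparg and Lpin1 differed by -1.03 on the log2 scale for the MHC as a whole. By window it was -1.56 from 34.5 Mb, -1.45 from 35.0 Mb and -0.85 from 35.5 Mb. The values from 34 Mb, -2.03, and from 36.5 Mb, 2.13, are descriptions. The window from 34 Mb was tested only because Pparg and Lpin1 captured it often. That from 36.5 Mb, with 63 captures from Ifng, 5 from Pparg and 10 from Lpin1, was tested only because Ifng captured it often.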

How the results depend on the processing

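Of 201 recomputed values over 30 results, leaving aside left-out libraries, 171 kept their direction and side of the threshold. Where one did not, the cause was not tested. With reads per site, the MHC against other autosomes was 0.63 for Pparg and 0.35 for Lpin1 (log2, no longer passing), and against both flanks 0.42 for Pparg (no longer passing), -0.61 for Lpin1 (other direction) and -0.31 for Ifng (now passing). Requiring at least 2 reads gave 0.49 for Pparg (not passing) and -0.29 for Ifng (passing) against the flanks, counting only sites captured in any library gave 0.22 (not passing) and -0.33 (passing), and thinning gave 0.16 (not passing) and -0.22 (passing), with 0.32 for Lpin1 (passing). Against the low-side flank alone the value was -0.52 for Pparg and -0.30 for Lpin1, both of the other direction. Against the high-side flank alone it was 1.35 for Lpin1 (passing) and 0.0469 for Ifng (other direction).

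In the tile fits, no day or B cell contrast of the MHC passed under any alternative run, and some changed direction. Reads in place of captured sites gave -0.0846, -0.98 and -0.41 for Pparg on days 1, 2 and 6, -0.00607 for Lpin1 in B cells and 0.14 for Ifng on day 6. At least 2 reads gave 0.19 and 0.24 for Ifng on days 2 and 6 and 0.0599 for the 3 baits on day 2. Thinning gave -0.35 for Pparg on day 1, and total scaling 0.0117 for the 3 baits on day 2. Pparg against Lpin1 passed with no filter, at 0.39. The MHC windows passing between Ifng and the other baits, 5 in the fit reported with those from 34 and 36.5 Mb included, were 3 with reads. They were 0 with at least 2 reads and 0 with thinning, where only 1 and 0 windows had enough captures to be tested. With the replicate number as a block no call changed for the MHC, and its lowest adjusted p in a day contrast was 0.371 with edgeR, for Pparg on day 2.

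Without 1 library the MHC against the flanks ran from 0.22 to 0.36 for Lpin1, passing without either day 2 library, and from -0.25 to -0.10 for Ifng, passing without day 0 replicate 1. Ifng on day 2 ran from -0.34 to 0.21 and the 3 baits on day 2 from -0.11 to 0.0852. Pparg against Lpin1 ran from 0.28 to 0.45, passing without Lpin1 day 6 replicate 2. The MHC windows passing between baits, counted with those from 34 and 36.5 Mb, ran from 2 to 5. There were 2 without Pparg day 6 replicate 1, and 3 without Lpin1 day 1 replicate 1, Ifng day 0 replicate 2 or Ifng day 2 replicate 1. DESeq2 called fewer tiles than edgeR in the B cell contrasts: 0 against 17 for Pparg, 0 against 72 for Lpin1 and 16 against 56 for Ifng. It called 141 against 214 for Pparg against Lpin1. A 3T3-L1 library held 6 to 85 captured MHC sites, and these counts limit the precision of each difference.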
